A study of Mus musculus with 12 samples.

Results

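Genes of S phase and DNA replication were described in differentiated mouse neurospheres. The 42 genes were chosen by name as a module of S phase markers, out of 20887 named genes on the array. Earlier results of these data were known when the 42 genes were chosen. Each of them had at least 1 probe, 50 probes in all, and 40 were expressed, that is, their spots stood well above background for one of the conditions compared, on 3 or more of the 4 arrays. Wdr76, a gene linked to DNA repair, and Ccne2, one of the E-type cyclins, were not and have no fold change here. The 40 expressed genes were read from the probe with the highest mean intensity of each gene.

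The neurospheres were grown from the telencephalon of C57BL/6 mouse embryos at day 13, attached to poly-L-lysine and laminin, and kept for 7 days without EGF and FGF2 so that the progenitors could differentiate. WT neurospheres came from wild-type embryos and APP_WT neurospheres from APPswe/PS1dE9 embryos, whose transgenes for mutated forms of APP and presenilin 1 make them a mouse model of Alzheimer's disease. BK_APP and HOE_APP neurospheres came from the same APPswe/PS1dE9 genotype and received 1 µM bradykinin (BK), the peptide agonist of the B2 kinin receptor, or 1 µM HOE-140, a modified peptide analog that blocks this receptor, on days 0, 3 and 6. RNA of 4 biological replicates of each model was compared on 12 two-color arrays, 4 for APP_WT against WT and 4 each for BK_APP and HOE_APP against APP_WT, with the dyes swapped on replicates 3 and 4. The promoters that drive the transgenes and any pooling of embryos are not given in the sources used here. No WT neurospheres received a compound, so its action without the transgenes was not measured. On each HOE_APP array the labels give both channels the same description, treated on replicates 1 and 2 and untreated on replicates 3 and 4, and the direction of every HOE_APP value is therefore likely only. The APP_WT versus WT arrays were on one slide and the treated arrays on another, so slide and contrast cannot be told apart. Both conditions of a ratio were hybridized to the same array.

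DNA replication begins when E2F transcription factors, released from the retinoblastoma (RB) proteins by cyclin-dependent kinases, switch on the genes for origin licensing, fork assembly and nucleotide synthesis. Licensed origins carry the MCM helicase, which CDC45 and the GINS complex turn into an active fork. The newly made DNA is wrapped by histone chaperones and checked by repair enzymes. In the developing telencephalon these genes mark cycling progenitors, and their mRNA falls as cells leave the cycle to become neurons.

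E2F factors bind a short element in many of these promoters. Promoters (250 bases before to 50 bases after the start, RefSeq, build GRCm38.p6) were found for 32 of the 42 genes. The 8-letter words TTTCCCGC, TTTCGCGC, TTTGCCGC and TTTGGCGC were searched on both strands, and 14 of the 32 genes (43.8%) held one, compared to 2.6% of the 27025 genes with a promoter in the table. The word was held by 6 of 8 genes of licensing and firing, 3 of 6 of the fork and 5 of 8 of chromatin and histone supply, and by 0 of the 10 genes of S phase entry, nucleotide supply and repair that had a promoter. Mcm6 held 3 matches and Mcm3, Mcm5 and Mcm7 held 2. CCAAT, searched on both strands as well, was in the promoters of 21 of 32 genes (65.6%), compared to 41.1% of all genes. A match is a description of the letters and not a site shown to be bound. The 3 promoters printed here belong to the genes with the smallest adjusted p in APP_WT versus WT among those with a match, for licensing (Dtl), the fork (Pold3) and chromatin (Cdca7), and capitals mark the E2F word.
Dtl promoter, chr1:191575495-191575794, minus strand: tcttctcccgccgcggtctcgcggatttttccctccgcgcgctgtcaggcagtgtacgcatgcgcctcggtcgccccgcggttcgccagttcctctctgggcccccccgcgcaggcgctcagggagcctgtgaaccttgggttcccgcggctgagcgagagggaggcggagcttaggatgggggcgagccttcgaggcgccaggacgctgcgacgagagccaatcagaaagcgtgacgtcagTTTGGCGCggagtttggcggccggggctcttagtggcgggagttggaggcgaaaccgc
Pold3 promoter, chr7:100121453-100121752, minus strand: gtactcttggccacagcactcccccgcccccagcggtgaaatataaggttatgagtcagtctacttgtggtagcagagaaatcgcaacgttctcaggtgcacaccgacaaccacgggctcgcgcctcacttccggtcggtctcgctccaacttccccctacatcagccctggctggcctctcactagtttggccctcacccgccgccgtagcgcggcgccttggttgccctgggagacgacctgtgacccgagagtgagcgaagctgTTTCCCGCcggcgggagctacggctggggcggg
Cdca7 promoter, chr2:72475969-72476268, plus strand: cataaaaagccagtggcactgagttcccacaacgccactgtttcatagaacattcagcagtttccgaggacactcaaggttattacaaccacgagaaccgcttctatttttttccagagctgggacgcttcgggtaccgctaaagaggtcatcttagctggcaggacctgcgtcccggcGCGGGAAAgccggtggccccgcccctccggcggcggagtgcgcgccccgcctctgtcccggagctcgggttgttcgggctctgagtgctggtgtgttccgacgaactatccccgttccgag

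Relative to the start, the first letter of the match was at position -8 in Dtl, at -71 in Cdca7, where the word is read on the opposite strand, and at 17 in Pold3. The median log2 fold change was -0.03 for the 14 expressed genes with the word and 0.01 for the 17 without it in APP_WT versus WT, 0.06 and 0.09 in BK_APP versus APP_WT, and 0.05 and 0.08 in HOE_APP versus APP_WT. These medians were not tested.

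The replication mRNAs were well above background in most of the samples at day 7 of differentiation. In APP_WT neurospheres 36 of the 40 genes were well above background on all 4 arrays of the comparison with WT and the other 4 (Cdc6, Clspn, Hells and Atad2) on 3. In WT neurospheres 38 were above it on all 4 arrays, and the others were Cdc6 and Clspn. In HOE_APP neurospheres and the APP_WT neurospheres hybridized with them all 40 were. Among defining markers of the labeled cell types, 9 of 9 neural progenitor, 12 of 12 neuron, 9 of 9 astrocyte and 10 of 10 oligodendrocyte lineage genes were expressed, and 4 of 7 endothelial markers were, with Cldn5, Cdh5 and Emcn not expressed. The median signal of an array was 63 to 94.5 in the green and 89.5 to 117.5 in the red channel (scanner intensity units), and 51.2% to 60.3% of the gene spots were well above background. The number of arrays limits the precision of each value.

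APP_WT neurospheres were first compared with WT neurospheres to see whether the transgenes go with another level of the replication machinery. In this comparison 0 of the 40 genes rose and 1, Prim1, fell (limma with Benjamini-Hochberg adjustment over all expressed probes, threshold 0.05). Of all 14327 expressed named genes, 25% passed this test, 17% as higher and 8.02% as lower in APP_WT. The fitted log2 fold change was above 0 for 20 of the 40 genes and below 0 for 20, with a median of 0.0053 and a range from -0.19 to 0.35, while the median of all genes was 0.015. As whole neurosphere RNA was measured, fewer cycling cells and less mRNA per cycling cell cannot be told apart in any of these values.

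The median of the 40 genes was -0.08, 0.09, -0.11 and 0.04 on replicates 1 to 4, and 12, 26, 8 and 25 of them had a ratio above 0. The arrays of one comparison thus lay on both sides of 0, and the groups overlapped for most genes. A ratio above 0 on all 4 arrays was found for 1 gene (Ccne1; 20.8% of all genes) and below 0 for 2 (Pold3 and Cdca7; 12.5% of all genes). The levels of APP_WT and WT did not overlap for 2 genes, Ccne1 and Pold3 (15.4% of all genes). At an unadjusted limma p below 0.05, 3 genes (E2f1, Ccne1 and Dtl) were higher and 6 (Prim1, Pold3, Nasp, Casp8ap2, Cdca7 and Usp1) were lower, compared to 23.9% and 15% of all genes. The 95% confidence interval lay inside -0.5 to 0.5, a 1.41-fold change in either direction, for 39 of the 40 genes, and Cdc45 was the exception.

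**Figure D1:**
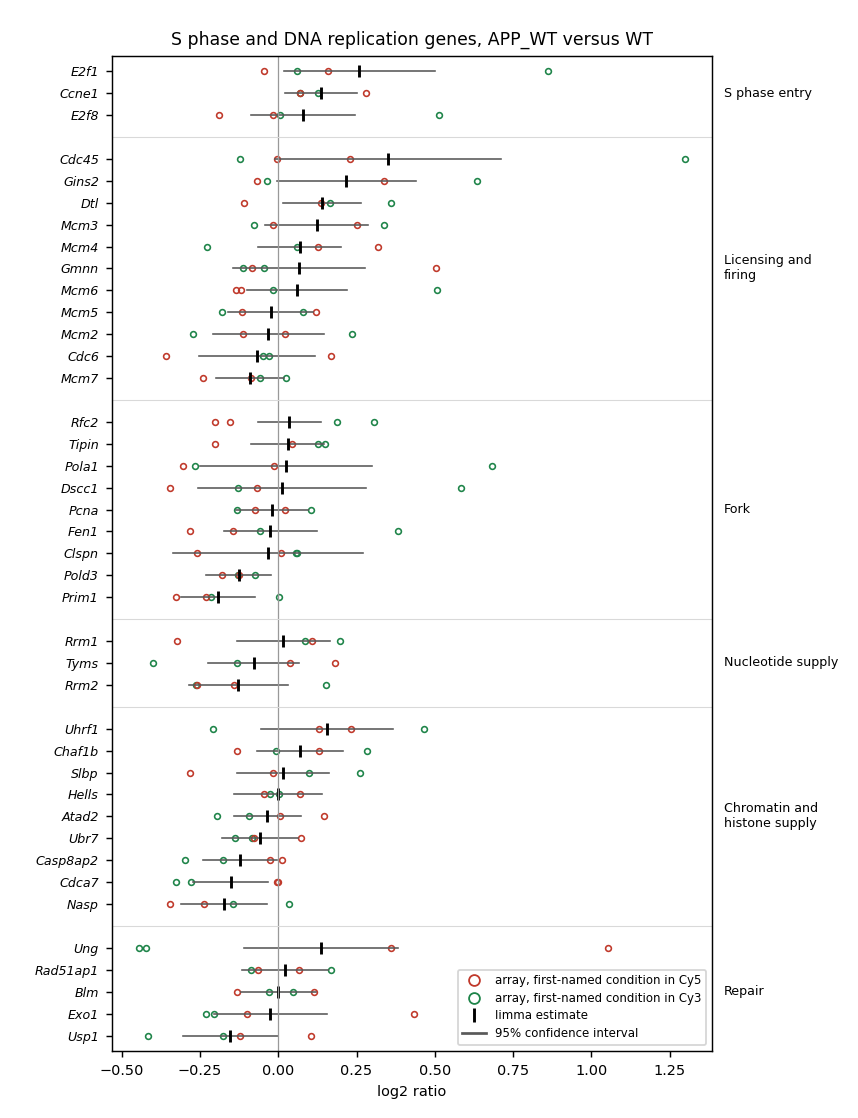
Log2 ratio of APP_WT over WT (horizontal axis) for the 40 expressed S phase and replication genes, grouped by role. Circles are the 4 arrays by dye orientation, black ticks the limma estimates and grey lines their 95% confidence intervals; Prim1 at -0.19 is the gene that passed the adjusted threshold, and the far right circle of Cdc45 is replicate 2 at 1.30.

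Among the genes of S phase entry, the E-type cyclin Ccne1, which drives the step into S phase with CDK2, had log2 ratios of 0.13, 0.07, 0.07 and 0.28 on replicates 1 to 4. It was above 0 on every array, with an estimate of 0.14 ± 0.05 (SE of the model over the 12 arrays). It missed the adjusted threshold (limma adjusted p = 0.0967). A dimmer second probe of Ccne1 was at -0.003. E2f1, the activator of the program, had ratios of 0.06, 0.86, -0.05 and 0.16, with replicate 2 far above the others and an estimate of 0.26 ± 0.11 (limma adjusted p = 0.131). E2f8, a repressor that closes the E2F wave, had ratios of 0.01, 0.51, -0.19 and -0.02 and an estimate of 0.08 ± 0.08. Replicate 2 gave the highest ratio for E2f1 and E2f8, but not for Ccne1.

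Of the 11 genes of origin licensing and firing none passed the adjusted threshold, and 7 were above 0. Dtl, the receptor of the ubiquitin ligase that destroys the licensing factor CDT1 in S phase, had ratios of 0.17, 0.36, -0.11 and 0.14 (0.14 ± 0.06, limma adjusted p = 0.119). Gins2, a subunit of the GINS complex, had ratios of -0.04, 0.64, -0.07 and 0.34 (0.22 ± 0.10, limma adjusted p = 0.165). Cdc45, the helicase cofactor, had ratios of -0.12, 1.30, 0.23 and -0.01. Its estimate of 0.35 ± 0.16 was the highest of the 40 genes, with replicate 2 far above the others (limma adjusted p = 0.171). The 6 MCM helicase subunits lay close to 0, from -0.09 (Mcm7) to 0.12 (Mcm3), with 3 above and 3 below. Geminin (Gmnn), which blocks a second licensing, was at 0.50 on replicate 4 and between -0.11 and -0.04 on the other arrays. The licensing factor Cdc6 was at -0.07 ± 0.08.

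At the replication fork Prim1, the catalytic subunit of the primase that starts each new strand, had ratios of -0.22, 0.0017, -0.33 and -0.23. It fell in APP_WT with an estimate of -0.19 ± 0.05, a 1.14-fold difference (limma adjusted p = 0.0281), with replicate 2 close to 0 and overlapping levels of both groups. The call was lost without replicate 1, 3 or 4 (limma adjusted p = 0.150, 0.129 and 0.059), with no filter on dim probes (0.062), with no dye term (0.066), and in separate fits of each slide (0.159) or of each comparison without a dye term (0.253). Pold3, a subunit of DNA polymerase delta, was below 0 on every array at -0.07, -0.13, -0.18 and -0.12 (-0.13 ± 0.05, limma adjusted p = 0.0881). Rfc2, of the clamp loader, had ratios of 0.31, 0.19, -0.20 and -0.15, so its sign followed the dye orientation, and its dye coefficient was called (-0.21 ± 0.05, limma adjusted p = 0.029). The other 6 fork genes, among them the sliding clamp Pcna (-0.02), the flap endonuclease Fen1 (-0.03) and the polymerase subunit Pola1 (0.02), lay between -0.03 and 0.03. On replicate 2 Pola1 and Dscc1, a loader of the clamp at cohesion sites, reached 0.68 and 0.58.

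The genes of nucleotide supply did not pass the threshold. Rrm2, the regulated subunit of ribonucleotide reductase, had ratios of -0.26, 0.15, -0.26 and -0.14 (-0.13 ± 0.07). Thymidylate synthase (Tyms) had ratios of -0.40, -0.13, 0.18 and 0.04 (-0.08 ± 0.07), and Rrm1 had 0.09, 0.20, -0.32 and 0.11 (0.02 ± 0.07). None of the 3 had the same sign on all arrays.

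Among the 9 genes of chromatin and histone supply, 6 were below 0 and none passed the threshold. Cdca7, a partner of the remodeler HELLS in DNA methylation, had ratios of -0.28, -0.33, -0.00097 and -0.0038 (-0.15 ± 0.05, limma adjusted p = 0.0785). The histone chaperone Nasp had ratios of 0.03, -0.15, -0.35 and -0.24 (-0.17 ± 0.06, limma adjusted p = 0.0807), and its second probe was at -0.23. Casp8ap2, needed for histone mRNA in S phase, had ratios of -0.18, -0.30, -0.03 and 0.01 (-0.12 ± 0.05, limma adjusted p = 0.145). Uhrf1, which brings the maintenance methyltransferase to new DNA, was highest at 0.15 ± 0.10. The histone mRNA binding protein Slbp was at 0.01 and -0.0027 by its 2 probes.

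Of the repair genes, Usp1, a deubiquitinase of the Fanconi anemia pathway and of PCNA, had ratios of -0.42, -0.18, -0.12 and 0.11 (-0.15 ± 0.07, limma adjusted p = 0.153). The nuclease Exo1 had ratios of -0.23, -0.21, -0.10 and 0.43, while Rad51ap1, a factor of recombination repair, had -0.09, 0.17, -0.07 and 0.06 (0.02 ± 0.06) and the helicase Blm was at -0.00019 ± 0.05. Ung, the uracil DNA glycosylase, was unlike the others. Its ratios were -0.42, -0.45, 1.05 and 0.36, below 0 where APP_WT carried Cy3 and above 0 where it carried Cy5. In BK_APP they were 0.50, 0.49, -0.90 and -0.48 and in HOE_APP 0.53, 0.50, -1.05 and -0.56, so the red channel was the brighter one on all 12 arrays. The dye coefficient of Ung was 0.57 ± 0.11, 0.59 ± 0.11 and 0.66 ± 0.11 in the 3 comparisons (limma adjusted p = 0.021, 0.029 and 0.016). Dye coefficients were called for 5.08%, 1.9% and 2.85% of all genes in these comparisons, and for 2, 1 and 1 of the 40 genes. With the dye taken out, the estimates of Ung were 0.14 ± 0.11, -0.10 ± 0.11 and -0.14 ± 0.11, none of which passed a threshold.

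**Figure D2:**
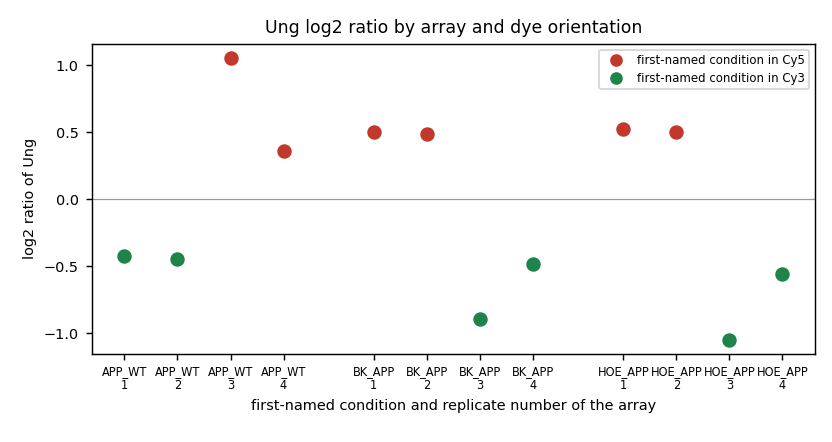
Log2 ratio of Ung (vertical axis) on each of the 12 arrays, named by the first condition of the comparison and the replicate number. All arrays with that condition in Cy5 (red) lie above 0, from 0.36 to 1.05, and all with it in Cy3 (green) lie below 0, from -1.05 to -0.42.

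The calls between APP_WT and WT depended on the scaling. With each array centered on its median, or with the processed signals of the scanner software, 7 of the 40 genes passed the adjusted threshold, all lower in APP_WT, and 8 did in the authors' table of log2 ratios. Centering on the median called Mcm7, Nasp, Rrm2, Pold3, Cdca7 and Usp1 besides Prim1, while the processed signals called Atad2, Blm, Casp8ap2, Tyms, Pold3 and Cdca7 besides Prim1. No gene passed as higher under any scaling tried on all 12 arrays. Scaling moves all genes, and with median centering the median of all genes was negative as well. The share of all genes called under these scalings is not given here. The counts were therefore not read as a fall of the replication genes. Without replicate 1, where replicate 2 alone stood for its dye orientation, Cdc45, E2f1, Gins2, Mcm6 and Uhrf1 were called higher and Prim1 was not called. The share of all genes called in that fit is not given here. With all 12 arrays 17% of all genes were called higher.

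Regulators of S phase entry outside the 42 genes were described next. Of 27 expressed genes of E2F, RB and cyclin control, 5 rose and 4 (Cdkn1c, Mycn, Cdk4 and the E2F partner Tfdp1) fell in APP_WT, compared to 17% and 8.02% of all genes, and over the 17 settings tried 4 to 6 were called higher and 0 to 7 lower. Inhibitors of the cyclin D kinases and of CDK2 were among those that rose. Cdkn2b (p15) had ratios of 1.01, 0.96, 0.95 and 1.39 and was 2.11-fold higher in APP_WT (log2 1.08 ± 0.08, limma adjusted p = 6.55e-06). Cdkn1a (p21) had ratios of 0.50, 0.77, 0.65 and 0.64 and was 1.56-fold higher (limma adjusted p = 0.000259). Cdkn2a, the locus of p16 and p19ARF, had ratios of 0.85, 0.56, 0.24 and 0.95 and was 1.57-fold higher (limma adjusted p = 0.00201). The levels of APP_WT and WT did not overlap for these 3 genes.

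Cdkn1c (p57) had ratios of -0.48, -0.18, -0.26 and -0.38 and fell (-0.32 ± 0.07, limma adjusted p = 0.00641), while Cdkn1b (p27), Cdkn2c (p18) and Cdkn2d (p19) were at -0.10, 0.14 and 0.02 without a call. Cyclin D1 (Ccnd1), which opens the way into S phase by releasing E2F from RB, had ratios of 0.38, 0.91, 0.62 and 1.16 and was 1.70-fold higher in APP_WT (limma adjusted p = 0.00416). Cyclin D3 (Ccnd3) rose as well (0.16, 0.55, 0.22 and 0.38, estimate 0.33 ± 0.07, limma adjusted p = 0.00757), and Ccnd2 was at 0.24 without a call. Rb1, Rbl1 and Rbl2, the RB family, were at -0.02, 0.05 and -0.02. The call of Cdkn2b, Cdkn1a, Cdkn2a and Ccnd1 held in all 17 settings tried, that of Cdkn1c in 14 and that of Ccnd3 in 12.

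**Figure D3:**
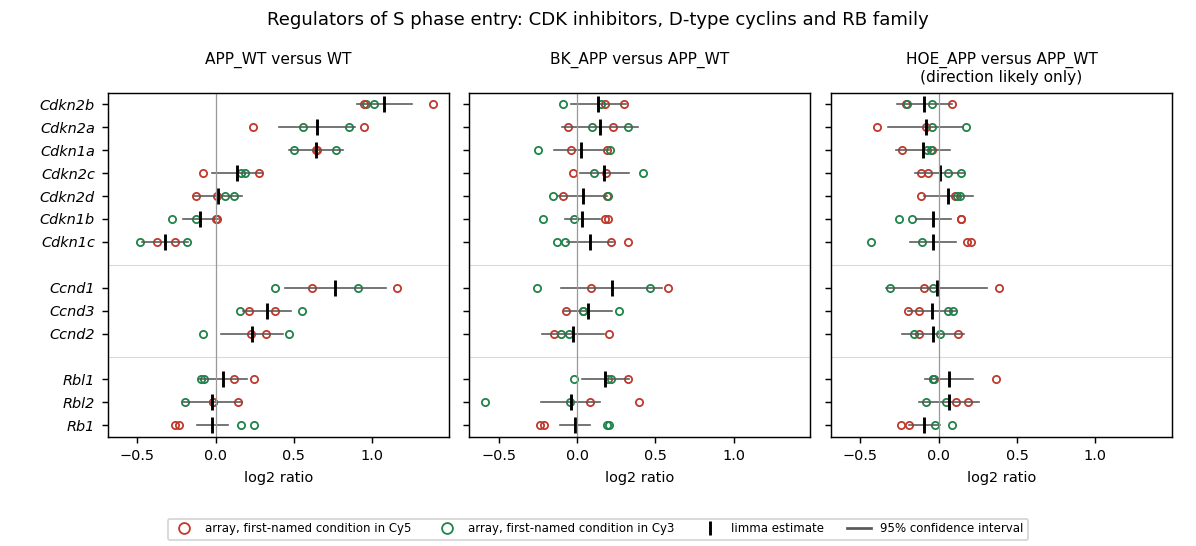
Log2 ratio (horizontal axis) of CDK inhibitors, D-type cyclins and RB family genes in the 3 comparisons. Circles are arrays, black ticks limma estimates and grey lines 95% confidence intervals; Cdkn2b, Cdkn2a, Cdkn1a and Ccnd1 lie above 0 on all 4 arrays of APP_WT versus WT, and no gene passed the adjusted threshold in the treated neurospheres.

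Other genes of the replication pathway were taken from 6 lists of 121 genes, 114 of them expressed, and in APP_WT versus WT 6 rose and 9 fell, with a median of -0.02. These counts lie beside 17% higher and 8.02% lower among all genes. Over the 17 settings tried 4 to 10 were called higher and 0 to 26 lower, with a median of -0.12 to 0.01, so the count of lower genes depended on the setting. Of 19 licensing genes 1 fell, the origin recognition subunit Orc4 (-0.26 ± 0.05, limma adjusted p = 0.00784, called in 15 of 17 settings), and the firing factor Ticrr was at -0.21 ± 0.07 without a call. Of 26 fork genes 1 rose, Rnaseh2a of the enzyme that removes RNA from DNA (0.18 ± 0.06, limma adjusted p = 0.0475, called in 4 of 17 settings), and the primase partner Prim2 was at -0.14 ± 0.05 without a call. Of 18 genes of nucleotide supply 2 fell, the salvage kinase Dck (-0.26 ± 0.07, limma adjusted p = 0.0253, called in 10 of 17 settings) and the dUTPase Dut (-0.22 ± 0.06, limma adjusted p = 0.0337, called in 9). Of 8 chromatin genes 2 fell, the polycomb methyltransferase Ezh2 and lamin B1. Ezh2 had ratios of -0.49, -0.52, -0.23 and -0.15 (-0.35 ± 0.05, limma adjusted p = 0.000606) and Lmnb1 had -0.52, -0.19, -0.27 and -0.14 (-0.28 ± 0.08, limma adjusted p = 0.0391), and they were called in 16 and 10 of the 17 settings. Of 16 genes of repair and checkpoint none passed the test, with the checkpoint kinase Chek2 at 0.22. Mycn, a transcription factor of proliferating progenitors among the control genes, fell (-0.25 ± 0.05, limma adjusted p = 0.00355, called in 14 of 17 settings).

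Of 24 expressed G2/M phase genes 1, the kinetochore gene Nuf2, rose in APP_WT versus WT (0.23 ± 0.07, limma adjusted p = 0.046), and its partner Ndc80 was at -0.24 ± 0.08 without a call. The median of the list was -0.0020, and it was -0.22, 0.09, -0.15 and 0.19 on replicates 1 to 4, with the same signs as the medians of the 40 replication genes on these arrays. Markers of cell types moved between the same neurospheres. Of 13 expressed microglia markers 7 (Cx3cr1, C1qa, Tyrobp, Trem2, Fcrls, Tmem119 and Ptprc) were well above background on only 1 or 2 WT arrays, so they had passed the expression filter through samples that carry the transgenes, and no count or median over the list is given for this comparison. Among those that were well above background on all 4 WT arrays, Aif1, Csf1r, C1qb and C1qc rose, and Itgam was at 0.11. P2ry12 and Spi1 were not expressed. The summed level of the microglia markers was 14080 to 18060 intensity units in APP_WT and 9846 to 12010 in WT. This sum holds the 7 markers seen on only 1 or 2 WT arrays as well. It was therefore not taken as support for a difference between the groups. Of 9 astrocyte markers 7 rose (median 0.30), and of 12 neuron markers 1 rose and 5 fell. Of 9 neural progenitor markers Nes, Vim and Prom1 rose and Hes5 and Pax6 fell. Among all genes 17% rose and 8.02% fell. The summed level of the progenitor markers was 119200 to 127500 in APP_WT and 94050 to 123900 in WT, and that of the 40 replication genes 69030 to 76490 and 66870 to 76970. Ung, the brightest of these 40 genes, whose ratios followed the dye, has a large part in the last sum. The part of the cell types in the replication genes was not tested.

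BK_APP neurospheres were then compared with untreated APP_WT neurospheres to find out whether the replication genes respond to the B2 agonist. None of the 40 genes passed the adjusted threshold (smallest limma adjusted p = 0.967), nor did any of the 14327 genes (0% called). Without adjustment 13 of the 40 genes had a limma p below 0.05, compared to 4.79% of all genes. Of these 12 were higher in BK_APP (2.63% of all genes) and 1, Casp8ap2, was lower (2.16%). Those higher were E2f8, Dtl, Mcm3, Mcm4, Mcm7, Gmnn, Prim1, Pcna, Tipin, Atad2, Exo1 and Rad51ap1. With each array left out in turn the higher count was 6, 6, 5 and 11 without replicates 1 to 4.

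The fitted log2 fold change was above 0 for 33 of 40 genes (50.4% of all genes), with a median of 0.09 and a range from -0.16 to 0.27, while the median of all genes was 0.0007. The median of the 40 genes was 0.07, 0.02, 0.17 and 0.10 on replicates 1 to 4, and 0.08 to 0.12 with each array left out. Array-wide, the ratios of BK_APP arrays with opposite dye orientation correlated at -0.32 to -0.11. Those of arrays with the same orientation correlated at 0.24 and 0.28. A ratio above 0 on all 4 arrays was found for 14 genes (5.75% of all genes) and below 0 for 1 (4.52%). The levels of BK_APP and APP_WT did not overlap for 5 genes, Dtl, Prim1, Rrm2, Atad2 and Rad51ap1 (0.97% of all genes). Significance analysis of microarrays (SAM) with rank products, the pair of tests named in the methods, called Dtl, E2f8, Exo1, Mcm3 and Rad51ap1 as higher at an unadjusted p of 0.05 or lower (2.12% of all genes) and 0 of the 40 genes between APP_WT and WT (16.4% of all genes). All these differences were small, and the 95% confidence interval lay inside -0.5 to 0.5 for all 40 genes.

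The 3 largest increases belonged to E2f8, Gmnn and Rad51ap1. E2f8 had ratios of 0.37, 0.18, 0.28 and 0.26 (0.27 ± 0.08, a 1.21-fold difference), above 0 on every array. Gmnn had 0.53, 0.42, 0.30 and -0.20 (0.26 ± 0.09), with replicate 4 opposite to the others. Rad51ap1 had 0.19, 0.22, 0.34 and 0.22 (0.24 ± 0.06), and Exo1 was next at 0.37, 0.01, 0.33 and 0.25 (0.24 ± 0.08). The 6 MCM subunits were all above 0, from 0.06 to 0.21, and Dtl was at 0.17, 0.20, 0.20 and 0.23 (0.20 ± 0.06). The 3 largest decreases were those of Clspn, a checkpoint adaptor of the fork, Casp8ap2 and Ung. Clspn had ratios of -0.01, -1.15, 0.33 and 0.19 (-0.16 ± 0.14), so the decrease was that of replicate 2. Casp8ap2 had -0.09, -0.30, -0.07 and -0.01 (-0.12 ± 0.05), below 0 on every array, but its second probe was at -0.01 ± 0.05. Ung followed the dye as described above. Prim1, the gene that was lower in APP_WT than in WT, had ratios of 0.0032, 0.13, 0.11 and 0.25 in BK_APP (0.13 ± 0.05, limma adjusted p = 0.967). Both comparisons use APP_WT neurospheres, and their values are given side by side only.

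**Figure D4:**
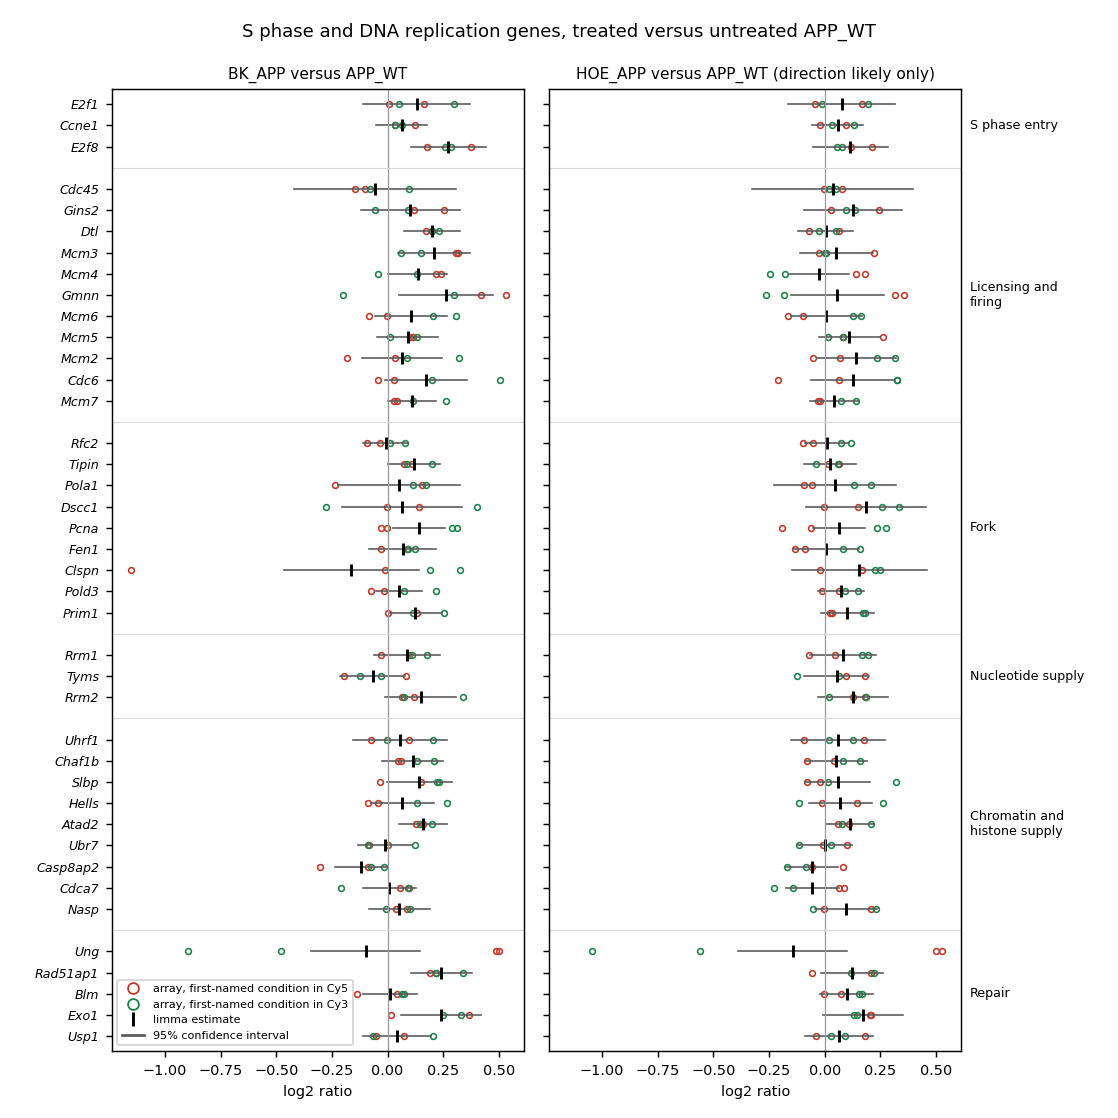
Log2 ratio (horizontal axis) of the 40 genes in BK_APP (left) and HOE_APP (right) over APP_WT, in the order of the plot for APP_WT versus WT. Circles are arrays by dye orientation, black ticks limma estimates and grey lines 95% confidence intervals; 33 estimates lie above 0 on the left and 36 on the right, and none passed the adjusted threshold.

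HOE_APP neurospheres were compared with APP_WT neurospheres to see the effect of the B2 antagonist, with a direction that is likely only. None of the 40 genes passed the adjusted threshold (smallest limma adjusted p = 0.924), nor did any of all genes (0% called). Without adjustment 1 gene, Atad2, had a limma p below 0.05 (4.91% of all genes). The estimates were above 0 for 36 of 40 genes (52.7% of all genes), with a median of 0.06 and a range from -0.14 to 0.18, while the median of all genes was 0.0043. The array medians were 0.05, 0.05, 0.08 and 0.11. Array-wide, the ratios of HOE_APP arrays with opposite dye orientation correlated at -0.32 to -0.19, and those with the same orientation at 0.34 and 0.43. A ratio above 0 on all 4 arrays was found for 7 genes (6.23% of all genes) and below 0 for 0 (4.22%), and the levels did not overlap for 1, Rrm2 (1.03%). SAM and rank products called 2 of them as higher, Dscc1 and Exo1 (1.95% of all genes). If the labels of the second channel were right, all these signs would turn.

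The 3 largest increases in HOE_APP were those of Dscc1, Exo1 and Clspn. Dscc1 had ratios of -0.0038, 0.15, 0.26 and 0.33 (0.18 ± 0.12) and Exo1 0.20, 0.21, 0.15 and 0.13 (0.17 ± 0.08). Clspn, at -1.15 on a single BK_APP array, had -0.02, 0.17, 0.25 and 0.23 (0.15 ± 0.14). The 3 largest decreases were those of Ung, Casp8ap2 (-0.06, 0.08, -0.17 and -0.08, estimate -0.06 ± 0.05) and Cdca7 (0.09, 0.06, -0.23 and -0.14, estimate -0.06 ± 0.05). Atad2, a chromatin cofactor of E2F targets, was above 0 on all 4 arrays of BK_APP at 0.16, 0.13, 0.15 and 0.20 and on all 4 of HOE_APP at 0.06, 0.11, 0.21 and 0.08. The signs of some genes, Gmnn among them at 0.32, 0.35, -0.18 and -0.26, followed the dye on the HOE_APP arrays.

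The agonist and the antagonist were given at the same dose and on the same days, and their difference was tested as 1 pair over the 40 genes. None passed the adjusted threshold in BK_APP minus HOE_APP (0% of all genes), and 1 had an unadjusted limma p below 0.05 (2.96% of all genes), Dtl. With the replicate number as a block over the 8 treated arrays, chosen after seeing the data, none passed either, and 5 genes (E2f8, Gmnn, Dtl, Mcm3 and Mcm4) were higher in BK_APP at an unadjusted limma p below 0.05 (5.27% of all genes). Dtl was higher in BK_APP by 0.20 on the log2 scale, with a 95% confidence interval of 0.02 to 0.37 (limma adjusted p = 1.00). The median difference was 0.02, with a range from -0.32 (Clspn) to 0.21 (Gmnn), and 24 of 40 genes were above 0. The interval of the difference lay inside -0.5 to 0.5 for 37 of 40 genes, the exceptions being Gmnn, Cdc45 and Clspn. This does not show that the compounds act alike. For Cdc45 the standard error was 0.23 in this fit, whose spread is shared with the APP_WT versus WT arrays. It was 0.06 in the blocked fit over the 8 treated arrays. As the direction of HOE_APP is likely only, the difference was also taken with its sign turned. None passed the adjusted threshold then, 12 genes were higher at an unadjusted limma p below 0.05 (3.81% of all genes) and 1 lower (3.53%), 33 of 40 were above 0, and the median was 0.15. The order of the genes changed with the sign, with a range from -0.24 (Ung) to 0.41 (Exo1), and Dtl was at 0.20.

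The genes of G2 and M phase were above 0 in BK_APP as well. Of 24 expressed genes 24 were above 0 (50.4% of all genes) and 12 had an unadjusted limma p below 0.05 (4.79% of all genes). Their median was 0.19, with array medians of 0.23, 0.11, 0.34 and 0.09. None passed the adjusted threshold. The 12 became 0 without replicate 1 and 1 without replicate 3. In HOE_APP 22 of 24 were above 0 (52.7% of all genes), with a median of 0.07. Among the other genes of the pathway 90 of 114 were above 0 in BK_APP (median 0.05) and 76 in HOE_APP (median 0.03). Cdkn2b, Cdkn1a, Cdkn2a and Ccnd1 were at 0.14, 0.03, 0.15 and 0.22 in BK_APP and at -0.09, -0.10, -0.08 and -0.01 in HOE_APP, without a call.

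**Figure D5:**
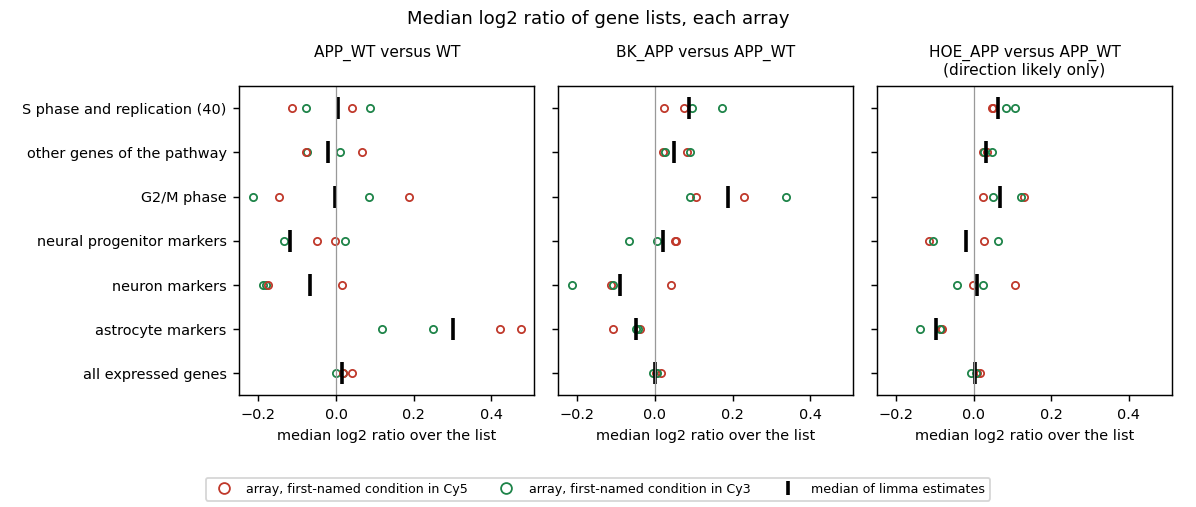
Median log2 ratio (horizontal axis) over the genes of each list in the 3 comparisons. Circles are arrays by dye orientation and black ticks the medians of the limma estimates; in BK_APP the replication genes lie at 0.09 and the G2/M genes at 0.19, with the 4 arrays of each above 0, and in APP_WT versus WT both lists have 2 arrays on either side of 0.

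Cell type markers in the treated neurospheres are given beside these values, and none passed the adjusted threshold. In BK_APP 0 of 12 neuron markers were above 0 (median -0.09) and 10 of 13 microglia markers were (median 0.15). Of 9 progenitor markers 5 were above 0 (median 0.02), and of all genes 50.4%. In HOE_APP 0 of 13 microglia markers (median -0.07) and 0 of 9 astrocyte markers (median -0.10) were above 0, compared to 52.7% of all genes. The summed level of the neuron markers was 112700 to 124900 intensity units in BK_APP and 116900 to 129000 in the APP_WT neurospheres on the same arrays, and that of the 40 replication genes 72000 to 78350 and 70030 to 78990. Array by array, the summed level of the neuron markers was lower in BK_APP on all 4 arrays. Those of the replication genes and of the microglia markers were each higher on replicates 1 and 2 and lower on replicates 3 and 4, which have the other dye orientation. Ung, the brightest of the 40 genes at log2 levels of 13.6 to 14.5, has a large part in the replication sum. Its ratios followed the dye, at 0.50, 0.49, -0.90 and -0.48. The median ratio of the 40 genes was above 0 on all 4 arrays, at 0.07, 0.02, 0.17 and 0.10. The part of neuron and microglia RNA in the shift of the replication genes was not tested.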

How the data were processed

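RNA of WT, APP_WT, BK_APP and HOE_APP neurospheres was hybridized to 12 two-color Agilent arrays. The authors deposited the scanner output, with the median intensity of each spot and of its background in both channels, not normalized, and the processed intensities of the software (Feature Extraction 11.0.1.1 per the file headers). The log10 ratio the authors deposited beside them was used to check signs. Their own log2 ratios, deposited by the authors as a value matrix, served as an alternative.

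Median intensities were corrected with normexp (offset 50) and loess (span 0.3), with 3671 of 62976 spots dropped as controls and replicate spots averaged per probe. Fold changes of dim probes come out smaller because of the offset. Of 55681 probes 29357 were expressed, and 27509 were named through RefSeq accessions. A single limma model (limma 3.58.1, R 4.3.3) over the 12 arrays estimated, for each comparison, the mean ratio and the dye effect (6 residual and 4.56 prior degrees of freedom). Tests were two-sided, with Benjamini-Hochberg adjustment over all expressed probes, and the script was tested on simulated data. SAM (16 sign flips) and rank products (100 permutations) were programmed anew. Fold changes in the text are on the log2 scale with the standard error of this model. Genes given with every array were the 3 of each role with the smallest adjusted p in APP_WT versus WT and the 3 largest increases and decreases in the treated neurospheres. The 2 genes with the smallest adjusted p of each other list and the RB family, cyclin D and Cdkn genes were named, some by their estimate alone. Other genes, and which of these are given with every array, were chosen after their values were seen. A gene that this rule names is not reported here. The members and lists were chosen with earlier results of these data known. For HOE_APP the labels of the channels conflict, and the direction was taken from the titles, the first channel's labels and the BK_APP layout. The authors' values have the same sign. Same-numbered BK_APP and HOE_APP arrays deviated together from their group means (correlation 0.52 to 0.67, and 0.42 to 0.43 with the dye effect removed). With the dye effect removed, replicates 1 and 2 mirror each other and give nearly the same correlation, as do replicates 3 and 4. The replicate numbers were taken to pair the arrays. The labels do not say what they share. Both comparisons have APP_WT below in the ratio, and whether same-numbered arrays hold the same APP_WT RNA was not tested. The counts of genes above 0 in BK_APP and in HOE_APP were therefore not taken as independent of each other. The standard errors of BK_APP minus HOE_APP treat the arrays as unpaired, and a blocked fit is given beside that result. p-values and standard errors rest on the spread between replicates, shared by the 3 comparisons. A ± value is therefore not the spread of the arrays of its own comparison.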

Additional observations from a re-analysis of the deposited data

Results flagged for a closer look

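In 7 of the 123 sets of 4 arrays examined (40 genes and the gene median in 3 comparisons), 1 array lay far from the other 3, by Dixon's test at 95%, and chance gives about 1 in 20 sets. In APP_WT versus WT these were Gmnn at 0.50 on replicate 4 (others -0.11 to -0.04) and Clspn at -0.26 on replicate 3 (others 0.01 to 0.06). In BK_APP versus APP_WT they were Pola1 at -0.24 (others 0.12 to 0.17) and Blm at -0.14 (others 0.04 to 0.08), both on replicate 2, and Cdca7 at -0.21 (others 0.05 to 0.10) and Rad51ap1 at 0.34 (others 0.19 to 0.22), both on replicate 3. In HOE_APP versus APP_WT it was Mcm3 at 0.22 on replicate 1 (others -0.03 to 0.01). Values are log2 ratios.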

How the results depend on the processing

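Of the 40 genes, the main analysis called 1 in APP_WT versus WT. Median centering and the processed signals called 7 each, 8 were called in the authors' log2 ratios and 2 by the probe with the smallest p of a gene, while 0 were called without a filter on dim probes, with no dye term, in separate fits of each comparison or slide, and by SAM and rank products. Without 1 replicate the count was 0 to 5, and at an unadjusted limma p below 0.05 it was 9. Shares of all genes called under the other scalings or without 1 replicate are not given here, so these counts have no background beside them. In BK_APP the adjusted count was 0 under every scaling, filter and left-out array, SAM and rank products called 5 and the unadjusted p called 13. In HOE_APP these were 0, 2 and 1, and in BK_APP minus HOE_APP 0 adjusted and 1 unadjusted. The median of HOE_APP moved to 0.16 with median centering, where that of all genes was 0.10, and to -0.061 with the sign of its arrays turned, which moved BK_APP minus HOE_APP to 0.15. The median difference BK_APP minus HOE_APP was -0.03 with median centering. The median of APP_WT versus WT ranged from -0.05 to 0.06 without 1 replicate and was -0.09 with median centering, where that of all genes was -0.08. Apart from the scaling itself, the cause of these moves was not tested. With the replicate block the count in APP_WT versus WT was 1 (Prim1), the medians were those of the main analysis, and no call of the 40 genes changed. At an unadjusted limma p below 0.05 the block left 9 genes higher in BK_APP. The share of all genes at this threshold in the blocked fit is not given here, so this count has no background beside it. Same-numbered arrays correlated at -0.60 to -0.30 between APP_WT versus WT and the treated comparisons, and at -0.51 to -0.20 with the dye effect removed. APP_WT stands on top of the first ratio and below in the others. The sign alone therefore does not tell whether the number pairs those arrays, which was not tested. For BK_APP minus HOE_APP the block over the 12 arrays left 1 gene at an unadjusted p below 0.05 and that over the 8 treated arrays, chosen after seeing the data, 5, with 0 adjusted in both. A dim probe sets a limit, as with Cdc45 and Clspn, which were not well above background on every array.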
